A study of Mus musculus with 32 samples.

Results

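The comparison described here sets stem-enriched cells of mouse bone marrow against mouse bone marrow cells that lack the lineage markers, Sca-1 and cKit. It takes 3 stem-enriched samples and 3 Sca-1-negative cKit-negative samples, called cKit-negative cells below, which are 6 of the 16 RNA samples and 12 of the 32 arrays of the series. The samples were chosen by their labels alone. Every RNA was read on 2 Affymetrix arrays, chip types A and B, which carry short probes grouped into probe sets for different genes. The labels do not give the stem-enriched phenotype, but instrument records name cells without lineage markers that carry Sca-1 together with cKit. Per the labels, both populations were sorted by flow cytometry to a purity over 90%, and fewer cells went into each stem-enriched RNA than into each cKit-negative RNA. The submitters regard the former as enriched for stem and progenitor activity and the latter as later progenitors that lean to the lymphoid lineage, and they planned the comparison to find genes that change as marrow cells differentiate. The labels name no treatment, strain, age or sex. Nor do they say whether the samples came from separate animals, so the spread behind every p-value is one between samples and may be technical.

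Haematopoietic stem cells lie at the origin of all blood cells, and cells that carry both Sca-1 and the stem cell factor receptor cKit but none of the lineage markers hold nearly all of this activity in mouse marrow. As cells mature they switch on the products of single lineages, such as granule proteins in neutrophils, eosinophils and basophils, haem enzymes in red cell precursors and receptor complexes in lymphocytes. The transcription factors and surface receptors of the immature state are lost on the way.

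Pearson correlations of log2 signals across probe sets, which are not independent replicates, lay between 0.846 and 0.870 among stem-enriched samples, between 0.877 and 0.895 among cKit-negative samples and between 0.762 and 0.822 across the populations. RNA quality moved with the populations. Control probe sets at the 3′ end of Gapdh exceeded those at its 5′ end on chip type A by a log2 ratio of 3.99 ± 0.17 among stem-enriched samples (SD, n = 3) and 3.09 ± 0.22 among cKit-negative samples. The log2 ratio for actin was 2.75 ± 0.22 and 1.44 ± 0.20, respectively. Neither ratio overlapped between the populations on either chip type (exact two-sided permutation test, p = 0.1 for each, the smallest that 3 against 3 samples allow). All arrays of a population were scanned on days that held none of the other, so the day of scanning cannot be told apart from the population. The 6 samples shared 1 chip lot on chip type B, while on chip type A cKit-negative replicate 1 came from another lot than the other 5. Another sample of the 15 fitted together, replicate 2 of the Sca-1-negative cells with cKit (cKit-positive below), stood apart. Its Gapdh log2 ratio was 0.38 on chip type A and 0.18 on B, while all other arrays lay between 2.62 and 4.17, and its median signal on chip type A was 880, beside 453 to 581 on the others. It belongs to neither population compared, though it enters the shared spread, and the main counts without it are given below. The part of RNA quality in the differences below was examined only by fits with this Gapdh ratio as a covariate, on all 15 samples and on the 6 compared. Their counts stand in the closing section.

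Expression differed in both directions between the populations, and the largest differences were of genes lower in stem-enriched cells. A limma model of 15 samples from 5 marrow populations was read at the contrast of stem-enriched minus cKit-negative cells, and genes with an adjusted p under 0.05 (Benjamini-Hochberg over all probe sets of both chip types) are named as called. Of 28599 probe sets tested, 2425 (8.48%) were called, of which 1059 were called higher (3.7%) and 1366 lower (4.78%) in stem-enriched cells. At 1 probe set per gene, 1338 of 13502 tested genes were called (9.91%), 614 of them higher (4.55%) and 724 lower (5.36%). The median fold among called genes was 2.44 for the higher and 3.20 for the lower ones. At least 16-fold differences were held by 4 higher and 29 lower genes. The median log2 difference of all tested genes was 0.10. Of the called genes, 1329 had 3 stem-enriched values that did not overlap the 3 cKit-negative values. Over all tested genes, 32.9% did not overlap, made up of 19.6% wholly higher and 13.3% wholly lower in stem-enriched cells. The count of called probe sets depended on single samples. It was 2425 with all samples, 1481 and 1531 without stem-enriched replicate 2 or 3, 1539 and 1363 without cKit-negative replicate 1 or 2, and 4242 without replicate 2 of the cKit-positive cells, another population in the fit.

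**Figure D1:**
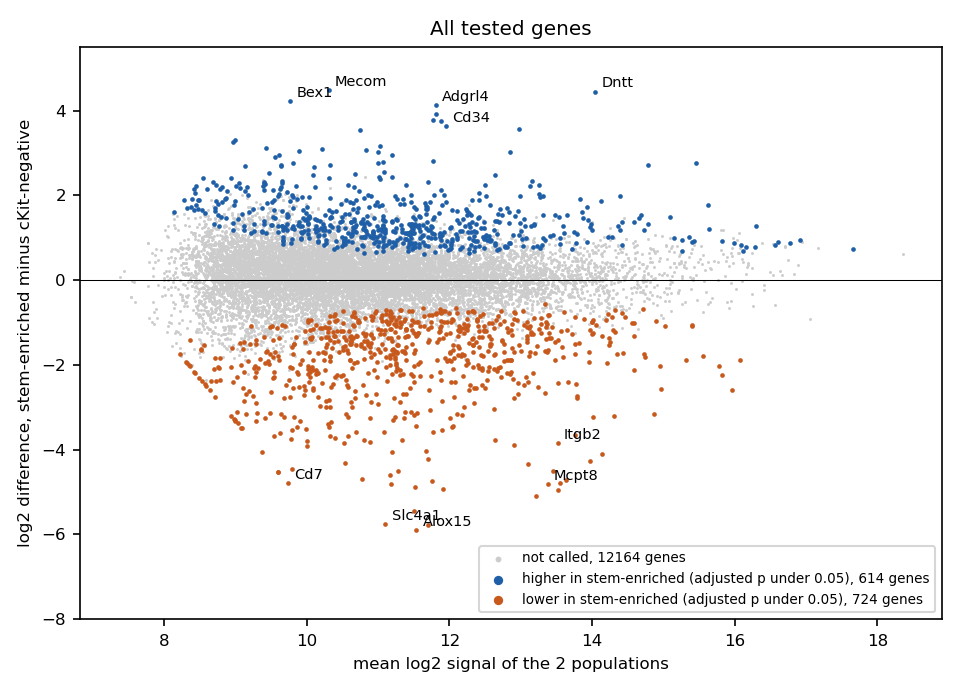
Log2 difference of stem-enriched minus cKit-negative cells (vertical axis) against the mean log2 signal of both populations (horizontal axis) for the 13502 tested genes. Blue points are the 614 genes called higher, orange points the 724 called lower and grey points the rest. The orange points reach farther from 0 than the blue ones, down to -5.90 for Alox15 against 4.49 for Mecom, whose value is a lower bound.

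Kit, Cd34 and Flt3 were higher in stem-enriched cells, and Kit, which encodes cKit, is a marker of the sort itself. It had signals of 4476, 5050.3 and 4971 in stem-enriched replicates 1, 2 and 3 and of 723, 758 and 1276 in cKit-negative replicates 1, 2 and 3. The order of replicates is the same in all signals below. The highest cKit-negative sample lay well under the lowest stem-enriched sample (5.44-fold, log2 difference 2.44, SE 0.23, adjusted p = 4.34e-06, limma). Cd34, a sialomucin of immature cells, had 9929, 16397 and 16452 against 852, 948 and 1762 (12.3-fold, log2 difference 3.63, SE 0.29, adjusted p = 8.54e-07). Flt3, the cytokine receptor of early multipotent cells, had 5721, 6427 and 9620.4 against 1351, 1375 and 2959.5, again with no overlap (4.01-fold, log2 difference 2.00, SE 0.37, adjusted p = 0.00229). The gene of Sca-1 itself is not analysed here.

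Both populations had been sorted as lineage-negative, yet lineage antigens were higher in cKit-negative cells. Of 9 tested members of the list of lineage antigens, 5 were called lower in stem-enriched cells, all 9 had differences below 0 and the median log2 difference was -1.33. Within the chip lot that the populations shared on chip type A, 1 of the 9 was called. On that chip type this fit keeps the stem-enriched samples and only replicates 2 and 3 of the cKit-negative and cKit-positive cells. It leaves out total and lineage-depleted marrow there, while chip type B keeps all 15 samples. For calls lost there, here or below, the lot and the smaller fit cannot be told apart. Of the 1338 called genes 581 stayed called in it, and 1067 with the lot as a block on chip type A. Itgam, the myeloid integrin CD11b, had 239, 190.1 and 30.6 in stem-enriched cells against 1376, 1261 and 574 in cKit-negative cells (log2 difference -2.36, SE 0.45, adjusted p = 0.00295). Cd3e, a chain of the T cell receptor complex, had 357, 175 and 164 against 943, 1138 and 1423 (log2 difference -2.41, SE 0.55, adjusted p = 0.0105). The leucocyte antigen gene Ptprc (CD45) had 14204, 16609 and 15680.5 against 41405, 39705 and 35846 (2.52-fold lower, adjusted p = 0.00473). These calls were lost within the shared chip lot, with adjusted p of 0.128 for Itgam, 0.0569 for Cd3e and 0.0999 for Ptprc, and Cd3e also missed the threshold with no floor on low signals (adjusted p = 0.0571). All of these genes stayed called with the chip lot as a block instead.

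Surface proteins of stem cells were mostly higher in stem-enriched cells. Of 29 genes on that list 25 were tested, 13 were called higher and 5 lower, and the median log2 difference was 1.15 (8 higher and 1 lower within the shared chip lot). Adgrl4, an adhesion receptor also known from blood vessels, had 9826, 21109 and 16275 in stem-enriched cells and 735, 830.3 and 1045 in cKit-negative cells (17.4-fold, log2 difference 4.12, SE 0.28, adjusted p = 2.23e-07). Procr, a receptor for protein C on endothelium and stem cells, had 895, 2076 and 1992 in stem-enriched cells, while its 3 cKit-negative values of 42.3, 70.7 and 56.8 lay under the floor of 162.2 that low signals on chip type A were raised to. Its difference is therefore a bound of at least 9.54-fold (adjusted p = 2.48e-04). Adgrg1, the adhesion receptor GPR56, rose by 2.76 (SE 0.31, adjusted p = 1.99e-05) and Esam, an adhesion molecule of endothelium and stem cells, by 1.87 (SE 0.34, adjusted p = 0.00211) on the log2 scale.

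Some members of the list went the other way. Cd9, a tetraspanin that platelets also carry in bulk, had 534, 630.3 and 870.4 in stem-enriched cells and 3688, 4152 and 2568 in cKit-negative cells (log2 difference -2.36, SE 0.34, adjusted p = 2.48e-04). Cxcr4, the receptor that holds cells in the marrow, had 749, 499.7 and 871 against 2382, 3016 and 1955 (adjusted p = 0.00987, but 0.0576 without stem-enriched replicate 2, 0.0577 without cKit-negative replicate 2 and 0.106 within the shared lot). The 5 genes called lower became 2 without stem-enriched replicate 2, 3 without replicate 3, and 2 or 3 without cKit-negative replicate 1 or 2. Other members were not called. Prom1, the glycoprotein CD133, had 2788, 568 and 455 in stem-enriched cells, where replicate 1 lay apart from the others and above the cKit-negative signals of 2039, 2615 and 1259, while replicates 2 and 3 lay under them. Without replicate 1 it was called lower (adjusted p = 0.015).

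Transcription factors of stem and progenitor cells were called in 1 direction. Of 33 tested members of 37, 15 were called higher and 0 lower, with a median log2 difference of 0.86, 5 of the 33 had differences below 0, and 2 of these had an unadjusted p under 0.05. Without stem-enriched replicate 2, 9 were called. Mecom, a zinc finger regulator of stem cell renewal, had 4256, 7198 and 7079 in stem-enriched cells and 210.0, 89.4 and 95.3 in cKit-negative cells, all 3 under the floor of 267.3 for chip type B, which gives a rise of at least 22.5-fold (adjusted p = 3.68e-05). Hoxa9, a homeobox factor that drives growth of immature myeloid cells, had 12331, 13746 and 12935 against 833, 768 and 1299 (13.8-fold, log2 difference 3.79, SE 0.53, adjusted p = 2.15e-04). A second Hoxa9 probe set with lower signals gave a log2 difference of 0.93 and was not called (adjusted p = 0.403).

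Hlf and Erg followed the same direction. Hlf, a bZIP factor of stem cells, had 3873, 5832 and 6442 in stem-enriched cells against 557, 650.4 and 692 in cKit-negative cells (8.34-fold, log2 difference 3.06, SE 0.28, adjusted p = 2.94e-06). Erg, an ETS factor needed to keep stem cells, had 5536, 6679 and 6556 against 163, 984 and 1264, with cKit-negative replicate 1 the lowest of all (9-fold, log2 difference 3.17, SE 0.47, adjusted p = 2.12e-04). Smaller rises were seen for Sox4 (2.24 on the log2 scale, SE 0.32, adjusted p = 2.61e-04) and for Lmo2, a bridging protein of blood transcription complexes (1.99, SE 0.28, adjusted p = 1.84e-04). Meis1, the partner of Hoxa9 and chosen here after its values were seen, shows how far probe sets of a gene can lie apart. Its brightest probe set rose 2.98-fold (adjusted p = 0.00286), another 34.4-fold (adjusted p = 0.000104), and the remaining probe set was not called (adjusted p = 0.26). Not all factors of the list were called. Gata2, which stem cells share with mast cells and basophils, had 5100.2, 5260.1 and 4774 in stem-enriched cells and 7553, 5752 and 8593 in cKit-negative cells. Its stem-enriched signals lay under all cKit-negative ones, but the fall was not called (log2 difference -0.51, SE 0.21, adjusted p = 0.148). Ikzf2 overlapped fully between the populations, with 13783, 21664 and 15092 against 14875, 20184 and 15822.

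**Figure D2:**
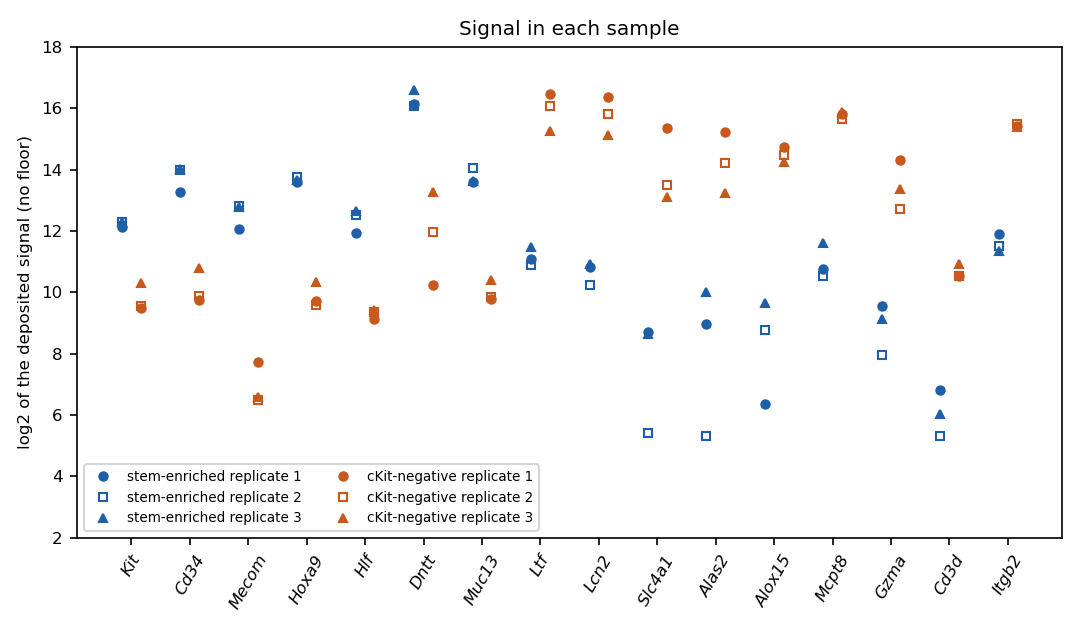
Log2 of the deposited signal (vertical axis) of 16 genes (horizontal axis) in each of the 6 samples, blue for stem-enriched and orange for cKit-negative cells, with a marker shape for each replicate and no floor applied. Kit, Cd34, Mecom, Hoxa9, Hlf, Dntt and Muc13 lie higher in all 3 stem-enriched samples, and the other 9 genes lie lower in them.

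Several of the largest rises were of genes that belong to none of these lists. Dntt, the terminal transferase that adds bases at V(D)J junctions in lymphoid precursors, had 71888, 69052 and 99079.6 in stem-enriched cells and 1201, 3979 and 9931 in cKit-negative cells (21.8-fold, log2 difference 4.45, SE 0.60, adjusted p = 1.29e-04). Its cKit-negative samples spread widely, with replicate 3 the highest, and still lay far under all stem-enriched samples. Muc13, a membrane mucin known from gut epithelium, had 12401, 17039.8 and 12672 against 879, 914 and 1350.2 (13.5-fold, adjusted p = 8.54e-07). Bex1, a small adaptor protein first described in brain, had 2255, 5601 and 4217 against 144, 219.8 and 231 (18.6-fold, adjusted p = 1.21e-06). The groups did not overlap for either gene.

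Secreted and matrix proteins were among these rises. Itih5, of a family of hyaluronan-binding heavy chains, had 9802, 17006 and 16158 in stem-enriched cells and 1941, 239 and 1517 in cKit-negative cells (15.1-fold, adjusted p = 5.30e-04), with cKit-negative replicate 2 far under the other samples of that population. Ltbp3, which binds latent TGF-beta, had 4254, 5569.7 and 8451 against 449.6, 449.7 and 622 (11.7-fold, adjusted p = 7.48e-07). Angpt1, the ligand of the receptor Tek, had 16932, 26919 and 20346 against 2447, 2374 and 3042 (8.07-fold, adjusted p = 1.22e-06). All of these were higher in every stem-enriched sample. Ctla2a, a protein with homology to the propeptide of cathepsins, rose 11.8-fold (adjusted p = 5.31e-06), and Tspan4, a tetraspanin, 8.57-fold (adjusted p = 1.31e-04).

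The list of endothelial and stromal genes, which holds Angpt1, had 8 called higher and 2 lower of 26 tested (5 higher without stem-enriched replicate 3 and 3 within the shared lot). Pdgfrb, a receptor of pericytes and other mesenchymal cells, had 1302, 3173 and 998 in stem-enriched cells, with cKit-negative values of 49.7, 142 and 55.6 under the floor (at least 9.89-fold, adjusted p = 4.56e-04). Collagen went the other way, with Col1a1 at 392, 319.6 and 249 in stem-enriched cells and 712, 2365 and 5925 in cKit-negative cells (log2 difference -2.77, SE 0.59, adjusted p = 0.00646), and so did fibronectin, Fn1, at 1557, 987 and 1535 against 8915, 17496 and 13161 (log2 difference -3.26, SE 0.44, adjusted p = 1.38e-04). Summed over 5 fixed stromal and endothelial markers, signals lay between 2520.2 and 3224 in stem-enriched samples and between 4089.9 and 8474 in cKit-negative samples. Hnf4a, a nuclear receptor known from liver and gut, had 1618, 2513 and 2059 in stem-enriched cells against 117, 446 and 179 (8.64-fold, adjusted p = 4.32e-04). The mean over its probe sets was not called (adjusted p = 0.0894).

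Genes of late neutrophil maturation made up the most frequent group of falls. Of 35 tested members of 40, 29 were called lower and 0 higher in stem-enriched cells, with a median log2 difference of -3.04. In bulk samples fewer cells of a type and less RNA per cell cannot be told apart, here or for the lineages below. Lcn2, an iron-chelator-binding lipocalin of secondary granules, had 1812, 1216 and 1958 in stem-enriched cells against 84629.9, 57217 and 35649 in cKit-negative cells (34.2-fold, log2 difference -5.10, SE 0.42, adjusted p = 1.11e-06). Lactoferrin, Ltf, had 2196, 1889 and 2871 against 91240.4, 69231 and 38857 (27.4-fold, log2 difference -4.78, SE 0.39, adjusted p = 8.54e-07). The cathelicidin gene Camp had 4769, 1301 and 2448 against 76406, 84393 and 43656 (26.5-fold, adjusted p = 1.22e-06). In all 3 genes cKit-negative replicate 3 had the lowest signal of its population, and every cKit-negative sample lay far above every stem-enriched sample. Cd177, a surface glycoprotein of neutrophils, fell by 4.69 on the log2 scale (SE 0.46, adjusted p = 6.49e-06). The 8 fixed neutrophil markers were called lower in all 8 cases, and their summed signals ran from 29417 to 67776 in stem-enriched samples and from 383069 to 666710.0 in cKit-negative samples, against 578483 to 711822 in total marrow.

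Itgb2l and Lbp stood outside this pattern. Lbp, the lipopolysaccharide binding protein, had 5866, 4630.4 and 2803 in stem-enriched and 3707, 3828 and 4079 in cKit-negative cells (log2 difference 0.13, SE 0.25, adjusted p = 0.832). Itgb2l, an integrin beta chain of neutrophils, depended on the probe set. The brightest had a log2 difference of 0.03 (adjusted p = 0.978), while another on chip type A gave -4.17 (adjusted p = 1.59e-05).

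Primary granule proteins, which granulocyte precursors make earlier, did not share the fall. Of 9 tested members of 12, 1 was called lower and 0 higher, and the median log2 difference was 0.30. Lysozyme 2, Lyz2, was the member called, with 3976, 3409.9 and 4422 in stem-enriched cells and 51575, 59833 and 38131 in cKit-negative cells (12.5-fold, log2 difference -3.65, SE 0.28, adjusted p = 6.91e-07). Myeloperoxidase, Mpo, had 165269, 77272 and 58564 in stem-enriched cells and 25298, 48359 and 78498 in cKit-negative cells, so the populations overlapped (log2 difference 0.99, SE 0.38, adjusted p = 0.126, but adjusted p = 0.0383 without cKit-negative replicate 3). Stem-enriched replicate 1 was the highest sample, and the same held for cathepsin G, Ctsg, at 83682, 19342 and 12062 against 15697, 19883 and 33128 (log2 difference 0.31, SE 0.49, adjusted p = 0.793). Without that replicate the median of the list was -0.39. The neutrophil elastase and proteinase 3 genes, Elane and Prtn3, chosen here after their values were seen, gave the same picture, with 20459.7, 3054 and 3240.2 in stem-enriched cells for Elane and 60173, 21948 and 16895 for Prtn3 (adjusted p = 0.233 and 0.147).

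The promoters of neutrophil and red cell genes that fell are printed because members of both lists moved together. They are the 250 bases before the transcription start from RefSeq on build GRCm38.p6, read 5′ to 3′ on the gene's strand. Capitals mark matches to TTGCNNAA, the core of sites for C/EBP factors of granulocytes, in the first pair, which is Lcn2 on the minus strand of chr2:32387740-32387989 and Ltf on the plus strand of chr9:111019042-111019291. In the second pair they mark matches to AGATAA, the core of sites for GATA factors of red cell precursors, in Alas2 on the plus strand of chrX:150547167-150547416 and Rhd on the plus strand of chr4:134864286-134864535. Both strands were searched, and the motifs overlapped in 9 of 32851 promoters. Each printed promoter holds 1 match to its marked motif, while most listed promoters of these lists hold none, as counted below.
Lcn2: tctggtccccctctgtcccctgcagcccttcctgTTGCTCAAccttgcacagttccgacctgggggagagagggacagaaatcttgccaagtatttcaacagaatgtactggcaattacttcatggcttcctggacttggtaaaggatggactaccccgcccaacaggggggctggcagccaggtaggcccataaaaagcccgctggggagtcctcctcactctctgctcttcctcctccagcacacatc
Ltf: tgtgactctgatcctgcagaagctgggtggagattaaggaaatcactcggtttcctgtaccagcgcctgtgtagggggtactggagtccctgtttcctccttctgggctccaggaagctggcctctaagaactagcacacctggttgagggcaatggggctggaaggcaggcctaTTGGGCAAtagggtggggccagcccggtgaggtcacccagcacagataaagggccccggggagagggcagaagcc
Alas2: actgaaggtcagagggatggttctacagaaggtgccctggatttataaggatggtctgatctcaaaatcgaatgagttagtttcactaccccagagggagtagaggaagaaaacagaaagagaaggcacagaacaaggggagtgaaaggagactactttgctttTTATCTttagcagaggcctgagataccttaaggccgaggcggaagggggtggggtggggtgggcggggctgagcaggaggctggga
Rhd: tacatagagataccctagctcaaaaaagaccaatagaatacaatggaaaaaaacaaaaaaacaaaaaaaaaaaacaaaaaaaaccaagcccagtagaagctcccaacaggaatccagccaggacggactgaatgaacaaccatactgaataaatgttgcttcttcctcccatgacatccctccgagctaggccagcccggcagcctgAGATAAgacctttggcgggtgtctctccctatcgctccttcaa

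TTGCNNAA was present in 8 of 29 listed promoters of the late neutrophil list (27.6%), in 2 of 48 promoters of the red cell and haem lists (4.17%) and in 9.56% of all promoters of this length. AGATAA was present in 7 of 48 promoters of the red cell and haem lists (14.6%), in 7 of 29 of the late neutrophil list (24.1%) and in 9.99% of all promoters. Of the tested members, 29 of 35 late neutrophil genes and 35 of 49 red cell and haem genes had a listed promoter. A match describes the letters in this window, not a bound site.

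**Figure D3:**
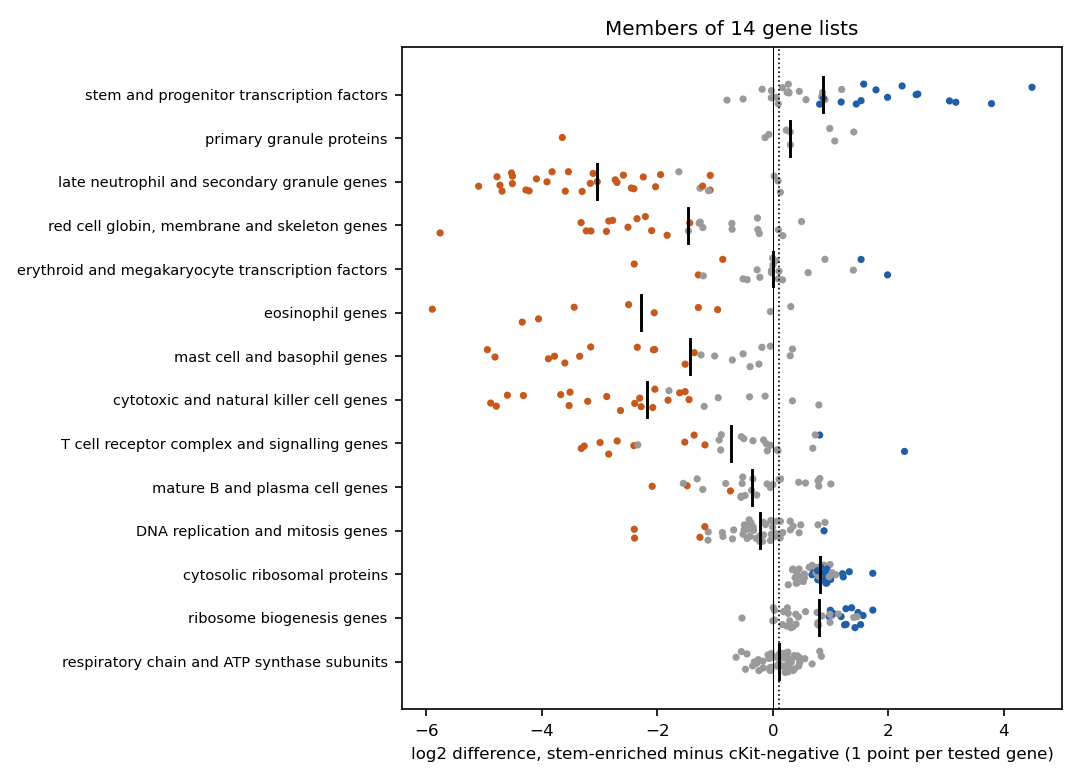
Log2 difference of stem-enriched minus cKit-negative cells (horizontal axis) of each tested member of 14 gene lists (vertical axis). Blue points were called higher, orange points lower and grey points not called, black bars are list medians and the dotted line is the median of all tested genes at 0.10. Late neutrophil genes have a median of -3.04 and primary granule proteins of 0.30, while all 45 tested cytosolic ribosomal proteins lie right of 0.

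Monocyte and macrophage genes were lower as well. Of 27 tested members of 36, 15 were called lower and 0 higher, with a median log2 difference of -1.28. Lgals3, the macrophage lectin galectin-3, had 611, 455 and 1224 in stem-enriched cells and 18425, 25200.5 and 20451 in cKit-negative cells (30.3-fold, log2 difference -4.92, SE 0.45, adjusted p = 2.96e-06). Adgre1, the macrophage and eosinophil antigen F4/80, had 942, 635 and 1028 against 8892, 8714 and 7041 (9.61-fold, log2 difference -3.26, SE 0.26, adjusted p = 8.54e-07). Clec4a2, an inhibitory lectin receptor, fell by 3.58 on the log2 scale (adjusted p = 6.75e-06), and Cx3cr1, the fractalkine receptor, by 2.43 (adjusted p = 9.56e-05). At their brightest probe sets other monocyte genes overlapped between the populations. Ccr2, which draws monocytes out of the marrow, had 3308, 2375 and 804 in stem-enriched cells and 1943, 3622 and 3237 in cKit-negative cells (log2 difference -0.62, SE 0.49, adjusted p = 0.526), but 2 of its 4 tested probe sets were called lower, and so was their mean (log2 difference -1.66, adjusted p = 0.00315). Fcgr1, the high-affinity IgG receptor, had 1750.2, 3183 and 2711 against 2917, 2792 and 2637 (log2 difference -0.17, SE 0.29, adjusted p = 0.81).

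Among myeloid transcription factors, 4 of 18 tested were called lower and 2 higher, and the median of the list was -0.12. Cebpb, which directs late and emergency granulocyte production, had 903, 1506 and 1386 in stem-enriched cells and 3826, 6576 and 4323 in cKit-negative cells (log2 difference -1.95, SE 0.42, adjusted p = 0.00697). Irf8, required for monocytes and dendritic cells, had 7229, 3107 and 2594 against 12203, 12521 and 19228, and stem-enriched replicate 1 was the highest of its population (log2 difference -1.89, SE 0.30, adjusted p = 6.71e-04). Nr4a1, an immediate early nuclear receptor, rose instead, at 24814, 45845 and 34669.5 against 9322, 11012 and 7962 (3.64-fold, log2 difference 1.86, SE 0.35, adjusted p = 0.00241). Lysosomal genes were lower in 14 of 37 tested cases and higher in 1, with a median of -0.62. Ctsh, a cysteine protease, had 12587, 4480.4 and 5225 in stem-enriched cells against 53740.2, 68165 and 63963 (9.26-fold, adjusted p = 2.70e-05), and Man2b1, a mannosidase, fell by 1.82 on the log2 scale (adjusted p = 4.07e-06). Grn and Npc2 were not called (adjusted p = 0.485 and 0.434). Without cKit-positive replicate 2 the adjusted p of Grn was 0.0336, and after quantile normalization that of Npc2 was 0.0277.

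Red cell genes fell in stem-enriched cells, with a wide spread among cKit-negative samples. Of 25 tested genes of the globin, membrane and skeleton list, 13 were called lower and 0 higher, with a median log2 difference of -1.46 (8 were called within the shared chip lot, and the median was -0.92 without cKit-negative replicate 1). Slc4a1, the anion exchanger band 3, had 413, 42.5 and 398 in stem-enriched cells and 41929, 11493 and 8867 in cKit-negative cells (54.3-fold, log2 difference -5.76, SE 0.50, adjusted p = 1.43e-06, or -6.39 with no floor, which stem-enriched replicate 2 lay under). Rhd, a blood group membrane protein, had 1134, 659 and 656 against 32289.8, 3303 and 3807 (9.39-fold, log2 difference -3.23, SE 0.60, adjusted p = 0.00244). In both genes cKit-negative replicate 1 was the highest sample, several times above replicates 2 and 3. The adult beta globin gene Hbb-b2 had 109, 19.1 and 292 in stem-enriched cells, the lowest in replicate 2, and 2617, 1832 and 1597 in cKit-negative cells (log2 difference -3.32, SE 0.33, adjusted p = 7.25e-06). Stem-enriched replicates 1 and 2 lay under the floor, so the size depends on it and was -4.51 with no floor and -1.88 with a floor at the median, and -1.71 as the mean over probe sets. Carbonic anhydrase 2, Car2, and peroxiredoxin 2, Prdx2, which red cells hold in quantity, were not called. For Car2 the signals were 11997, 15915 and 19655 in stem-enriched cells and 50173, 10392 and 12330.1 in cKit-negative cells, so cKit-negative replicate 1 lay above, replicate 3 within and replicate 2 under the stem-enriched range. The 6 measured red cell markers summed to between 1931 and 4557 in stem-enriched samples, between 24941 and 115387 in cKit-negative samples and between 99377 and 139968 in total marrow.

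In the haem and iron list 7 of 24 tested genes were called lower and 1 higher (3 lower within the shared lot), with a median of -0.89, or -0.45 without cKit-negative replicate 1. Alas2, the first and rate-limiting enzyme of haem synthesis in red cells, had 505, 40 and 1039.7 in stem-enriched cells and 38342, 18901 and 9676 in cKit-negative cells (43.5-fold, log2 difference -5.44, SE 0.55, adjusted p = 7.25e-06). Urod, a later enzyme of the same pathway, had 19985, 16215 and 14918 against 54086, 17087 and 22878 and was not called (log2 difference -0.71, SE 0.47, adjusted p = 0.425). Transcription factors of the red cell and megakaryocyte lineages were mostly not called. Of 21 tested, 3 were lower and 2 higher, with a median of -0.00. E2f2, which red cell precursors use as they leave the cell cycle, had 3295, 4321 and 3899 in stem-enriched cells and 20909.7, 22209 and 17576 in cKit-negative cells (5.28-fold, log2 difference -2.40, SE 0.26, adjusted p = 7.80e-06). It stayed called without any single sample of either population. The other 2 genes called lower, Gata1 and Mafg, lost their calls without single stem-enriched samples and without cKit-negative replicate 1. Tal1 and Gfi1b, chosen after their values were seen, had log2 differences of 0.06 (adjusted p = 0.96) and 0.00 (adjusted p = 0.998).

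Platelet and megakaryocyte genes split. Of 25 tested, 4 were called higher and 4 lower (2 higher without stem-enriched replicate 2 or 3), beside 4.55% and 5.36% of all tested genes. The 5 fixed megakaryocyte markers had 0 called. Their signals summed to between 11163 and 11489 in stem-enriched samples, between 6496 and 12124 in cKit-negative samples and between 12832 and 20501 in total marrow. Gng11, a G protein subunit, had 1715, 2171 and 2730.0 in stem-enriched cells and 549, 248 and 123 in cKit-negative cells (7.72-fold, log2 difference 2.95, SE 0.37, adjusted p = 6.78e-05), and Mmrn1, the platelet factor V binding protein multimerin, 5142, 7380.0 and 12752 against 1676, 1863 and 1908 (4.33-fold, log2 difference 2.11, SE 0.32, adjusted p = 2.35e-04). Thrombospondin 1, Thbs1, went the other way at 178, 128 and 484 against 3883, 3968 and 2155 (log2 difference -3.74, SE 0.44, adjusted p = 3.68e-05), as did coagulation factor V, F5, at 347, 218 and 369 against 3542, 3552 and 2234 (log2 difference -3.32, SE 0.33, adjusted p = 7.25e-06). The groups did not overlap for these 4 genes. Pf4, platelet factor 4, had 5918, 5481 and 5590.5 against 3081, 769.8 and 2909 and did not pass (log2 difference 1.57, SE 0.49, adjusted p = 0.0568). It passed under 9 of 29 other settings, among them quantile normalization (adjusted p = 0.0421), the chip lot as a block (0.0159) and leaving out replicate 1 or 2 of the cKit-positive cells (0.0326 and 0.0181) or replicate 1 or 3 of the cKit-negative cells (0.0457 and 0.0471).

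Eosinophil genes were among the most frequent falls, with 8 of 10 tested called lower, 0 higher and a median log2 difference of -2.28 (5 called within the shared lot). Alox15, the 15-lipoxygenase of eosinophils and some macrophages, had 81.2, 441 and 799 in stem-enriched cells, the first of these under the floor, and 27273, 22635 and 19634 in cKit-negative cells (59.6-fold, log2 difference -5.90, SE 0.40, adjusted p = 2.23e-07). Prg2, the granule major basic protein, had 3384, 1008 and 2214 against 36352, 45703 and 37731 (20.2-fold, log2 difference -4.34, SE 0.46, adjusted p = 1.17e-05). Epx, eosinophil peroxidase, had 2059.9, 796 and 1308 against 14617, 13464 and 13937 (10.9-fold, log2 difference -3.44, SE 0.39, adjusted p = 2.31e-05). The cKit-negative samples lay close to each other in all 3 genes, and stem-enriched samples ranged several-fold.

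Basophil and mast cell genes fell likewise, with 12 of 22 tested called lower, 0 higher and a median of -1.44. Mcpt8, a protease used as a basophil marker, had 1751, 1479 and 3118 in stem-enriched cells and 57826, 51729 and 59882 in cKit-negative cells (28.1-fold, log2 difference -4.81, SE 0.27, adjusted p = 4.69e-08). Ms4a2, the beta chain of the IgE receptor, had 4024, 1126 and 2101 against 62178, 55999.6 and 79720.2 (30.8-fold, log2 difference -4.94, SE 0.59, adjusted p = 2.13e-05). Alox5, the 5-lipoxygenase of leukotriene synthesis, had 1527, 1886 and 2739 against 31481, 31074 and 26137 (14.8-fold, log2 difference -3.89, SE 0.28, adjusted p = 2.23e-07). The groups did not overlap, and the spread among cKit-negative samples was small. The 5 measured basophil and mast cell markers summed to between 6194 and 12918 in stem-enriched samples, between 135482 and 164734 in cKit-negative samples and between 29855 and 31359 in total marrow. The arachidonate pathway as a whole had 5 of 15 tested genes lower and 10 not called, with a median of -0.11 (2 were called within the shared lot). Lta4h, which makes leukotriene B4, was not called (log2 difference -0.70, SE 0.23, adjusted p = 0.0698, but 0.00535 without stem-enriched replicate 1 and 0.0319 without cKit-positive replicate 2).

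Cytotoxic and natural killer cell genes were lower in stem-enriched cells for 19 of 26 tested members, with 0 higher and a median of -2.18 (12 without cKit-negative replicate 1 and 11 within the shared lot). Granzyme A, Gzma, had 748, 249 and 557 in stem-enriched cells and 20534, 6778 and 10559.8 in cKit-negative cells (24.2-fold, log2 difference -4.60, SE 0.52, adjusted p = 2.49e-05). Ccl5, a chemokine of cytotoxic lymphocytes, had 591, 470.1 and 566 against 19129, 12678 and 16783 (29.6-fold, log2 difference -4.89, SE 0.53, adjusted p = 1.64e-05). Cd7, an early T and natural killer cell antigen, had 4494, 3817 and 5268 in cKit-negative cells, while its stem-enriched values of 155, 97.5 and 109 lay under the floor (at least 27.7-fold lower, adjusted p = 1.15e-05). The receptor Klre1 fell by 4.32 on the log2 scale (adjusted p = 8.12e-07), and Eomes, the T-box factor of natural killer cells, by 2.64 (adjusted p = 8.16e-04).

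T cell receptor complex and signalling genes were lower for 9 and higher for 2 of 26 tested members, with a median of -0.72 (5 lower within the shared lot). Cd3d and Cd3g, 2 chains of the complex, had 1479, 1478 and 1935 and 1623, 1356 and 1730.0 in cKit-negative cells, and all their stem-enriched values lay under the floor, so the folds are at least 9.97 and 9.63 (adjusted p = 6.75e-06 and 4.37e-06). Of the fixed T cell markers, Cd4 lay under the floor in all 6 samples, and the brightest probe set of Cd8a overlapped at 4718, 3891 and 4570.0 in stem-enriched cells against 4497, 4975 and 5223 (log2 difference -0.16, SE 0.23, adjusted p = 0.769). The brightest probe set of Zap70, the kinase of the receptor, also overlapped (log2 difference -0.10, SE 0.26, adjusted p = 0.89). The mean over the probe sets of each gene was called lower, with log2 differences of -0.89 for Cd8a and -1.39 for Zap70 (adjusted p = 0.0187 and 0.0314). Among lymphoid transcription factors 7 of 29 were lower and 3 higher (1 higher within the shared lot). Ikzf3, the Aiolos factor of lymphocytes, had 1055, 781 and 907 in stem-enriched cells and 11442, 6679.6 and 6209 in cKit-negative cells (8.59-fold, log2 difference -3.10, SE 0.42, adjusted p = 7.78e-05), and Ets1 had 1156, 1076 and 1252 against 7715, 6999 and 5760.4 (5.85-fold, log2 difference -2.55, SE 0.24, adjusted p = 3.57e-06). Id2, an inhibitor of E proteins needed for natural killer cells, fell by 2.20 on the log2 scale (adjusted p = 3.47e-04), while Ikzf1 was not called (log2 difference -0.39, SE 0.29, adjusted p = 0.494, but 0.0496 with the Gapdh covariate). Of 8 GIMAP genes, small GTPases of lymphocytes, 2 were lower and 6 not called. The family as a whole was not lower, since 5 of the 8 differences were above 0 and the median was 0.16. One of the genes called lower, Gimap4, had 1153, 619 and 1428 against 18365, 8588 and 11343 (12.1-fold, log2 difference -3.59, SE 0.51, adjusted p = 2.48e-04).

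B-lineage genes were seldom called. Of 26 tested mature B and plasma cell genes, 3 were called lower and 0 higher, with a median of -0.36 (6 lower without cKit-positive replicate 2). The shares over all tested genes were 5.36% lower and 4.55% higher. Samples lay wholly lower for 9 of the 26 and wholly higher for 5, beside 13.3% and 19.6% of all tested genes. Bank1, a B cell adaptor, fell, at 3169, 2549 and 3247 in stem-enriched cells and 9361, 8019 and 7651 in cKit-negative cells (2.8-fold, log2 difference -1.48, SE 0.28, adjusted p = 0.00218). The immunoglobulin heavy chain gene Ighm had 14539, 12380.5 and 25838 against 12598, 16952 and 21614, and Pax5, the factor that fixes B cell identity, 2509, 977 and 2822 against 3560.3, 2001 and 2109.5 (adjusted p = 0.996 and 0.667). Signals of both genes overlapped. Among genes of pre-B cells and V(D)J recombination 3 of 22 were higher, namely Dntt, Erg and Sox4, which are described above, and 2 were lower. Cd79a and Cd79b, the signalling chains of the B cell receptor, and Vpreb1, of the pre-B cell receptor, were read after their values had been seen, and their adjusted p were 0.297, 0.663 and 0.913. The 5 measured B cell markers summed to between 4136 and 6778 in stem-enriched samples, between 6766 and 8144 in cKit-negative samples and between 14815 and 20189 in total marrow, and 0 of them was called or had an unadjusted p under 0.05 (limma).

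Few genes of antigen presentation or of plasmacytoid dendritic cells were called, and their counts say little beside the 4.55% higher and 5.36% lower among all tested genes. For MHC class II and dendritic cells 2 of 17 were higher and 1 lower. H2-Ob, a chain of the peptide-exchange regulator H2-O, had 8146, 13161 and 11002 in stem-enriched cells and 1788, 2993 and 4295 in cKit-negative cells (3.72-fold, log2 difference 1.89, SE 0.34, adjusted p = 0.00131), while the class II chain H2-Aa overlapped (log2 difference 0.28, SE 0.58, adjusted p = 0.846). For plasmacytoid dendritic cells 3 of 17 were lower and 2 higher. Pld4, an endosomal nuclease, had 1055, 455 and 604 against 3399, 5309.9 and 3782 (6.17-fold, log2 difference -2.63, SE 0.41, adjusted p = 5.47e-04).

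Chemokines, integrins and cytokine receptors were more often called lower than higher. Of 26 tested chemokines and their receptors 9 were lower and 0 higher. Ccl6, a chemokine of myeloid cells, had 163, 500.0 and 1126 in stem-enriched cells and 26269, 24005 and 23624 in cKit-negative cells (54.5-fold, log2 difference -5.77, SE 0.49, adjusted p = 1.30e-06), and Ccr1, a receptor of inflammatory chemokines, 391, 226 and 249 against 5257, 3456 and 1612 (11-fold, log2 difference -3.46, SE 0.50, adjusted p = 2.56e-04). Of 31 integrins, selectins and partners 10 were lower and 2 higher. Itgb2, the shared beta chain of the leucocyte integrins, had 3851, 2917 and 2633 against 44112, 46371 and 43239 (14.4-fold, log2 difference -3.85, SE 0.21, adjusted p = 4.49e-08). Itga4, which anchors stem and later cells alike, had 16659, 16651 and 17482 against 35585, 26054 and 31821 with no overlap, and was not called (log2 difference -0.87, SE 0.34, adjusted p = 0.13, but 0.00375 without cKit-positive replicate 2). Cytokine and growth factor receptors were lower for 8 and higher for 3 of 28 tested genes (4 lower without stem-enriched replicate 3 or cKit-negative replicate 2, and 3 within the shared lot). Il18r1, an interleukin 18 receptor chain, had 354, 692 and 937 in stem-enriched cells and 3642, 3336 and 2177 in cKit-negative cells (4.87-fold, log2 difference -2.28, SE 0.33, adjusted p = 2.48e-04), and Csf2rb, the shared chain of the IL-3, IL-5 and GM-CSF receptors, 8423, 4997 and 5161 against 20166, 21921 and 15527 (3.16-fold, log2 difference -1.66, SE 0.26, adjusted p = 3.82e-04). Il7r, the interleukin 7 receptor of lymphoid precursors, was not called (log2 difference -0.89, SE 0.38, adjusted p = 0.176, but 0.0133 without cKit-positive replicate 2). Toll-like and C-type lectin receptors were lower in 6 of 20 tested cases, or 3 without replicate 2 of either population.

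Ribosome genes shifted together by a small amount. Of 45 tested cytosolic ribosomal proteins of 81 listed, 19 were called higher and 0 lower, the median log2 difference was 0.83, all 45 differences were above 0 and 40 had samples that did not overlap, beside 19.6% of all tested genes. Rpl10a had 87254, 69210.5 and 78046 in stem-enriched cells and 33453, 26213 and 43581 in cKit-negative cells (2.31-fold, log2 difference 1.21, SE 0.23, adjusted p = 0.00259, but adjusted p = 0.097 within the shared lot). Rps3 had 209519, 164544 and 200684 against 115753, 95077 and 132311, with no overlap, and did not pass (log2 difference 0.75, SE 0.25, adjusted p = 0.0796, but 0.00625 without cKit-positive replicate 2). The count of 19 rested on many samples. It was 10, 11 and 5 without stem-enriched replicates 1, 2 and 3, 7 and 3 without cKit-negative replicates 1 and 2, 31 without cKit-positive replicate 2, and 0 within the shared lot, where the 45 differences were still above 0. With the Gapdh ratio as a covariate 44 of 45 were above 0, and 38 of 45 when that covariate was used on the 6 samples alone. After quantile normalization, which moved the median of all genes from 0.10 to 0.08, the list's median was 0.48 and 10 were called. Ribosomal protein genes have many processed pseudogenes, and probes may read several copies.

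Ribosome biogenesis genes moved by a like amount, with 13 of 43 tested called higher, 0 lower and a median of 0.79 (25 without cKit-positive replicate 2 and 4 within the shared lot). Differences above 0 numbered 41 of 43, but 35 with the Gapdh covariate and 31 with it on the 6 samples alone. Nop10, a small protein of the box H/ACA particles that modify ribosomal RNA, had 42622, 44076 and 43065 in stem-enriched cells and 13141, 15650.1 and 18269 in cKit-negative cells (2.78-fold, log2 difference 1.48, SE 0.23, adjusted p = 5.67e-04). Mybbp1a, a nucleolar protein, had 5783, 4299.7 and 5897 against 1217, 1248 and 2625 (3.32-fold, log2 difference 1.73, SE 0.32, adjusted p = 0.0022). Of 66 mitochondrial ribosomal proteins 7 were called higher and 0 lower, with a median of 0.34 (3, 3 and 4 without stem-enriched replicates 1, 2 and 3, 3 and 4 without cKit-negative replicates 1 and 2, 14 without cKit-positive replicate 2). Of 36 tested translation initiation and elongation factors 3 were called higher and 0 lower, with a median of 0.34. The share called higher over all tested genes was 4.55%, so the calls in these 2 lists say little by themselves. Their differences leaned upward, with 53 of 66 and 30 of 36 above 0, respectively. Samples lay wholly higher for 33 and 15 genes and wholly lower for 0 and 1, beside 19.6% and 13.3% of all tested genes. Other large complexes of housekeeping kind had no called members. Of 55 respiratory chain and ATP synthase subunits and of 35 proteasome subunits 0 were called (limma), with medians of 0.12 and 0.05, beside 0.10 for all tested genes. At an unadjusted p under 0.05, 5 respiratory chain genes were higher and 2 lower, and 3 proteasome genes were higher. Cox5b, of cytochrome oxidase, had 66948, 55399.6 and 63135 against 55704, 53101 and 63374, and the proteasome ATPase Psmc2 28162, 23271 and 25850.5 against 23818, 24516 and 22990.0 (adjusted p = 0.89 and 0.915).

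Genes of DNA replication and mitosis were seldom called, with 4 of 48 called lower, 1 higher and a median of -0.22 (7 lower when either stem-enriched replicate 1 or cKit-positive replicate 2 was left out). The shares over all tested genes were 5.36% lower and 4.55% higher. Samples lay wholly lower for 12 of the 48 and wholly higher for 3, beside 13.3% and 19.6% of all tested genes. Without cKit-negative replicate 1 the median was -0.02. Ccne1, the G1/S cyclin E1, had 10261, 4975 and 3508 in stem-enriched cells and 36251, 26323 and 27271 in cKit-negative cells (5.26-fold, log2 difference -2.39, SE 0.47, adjusted p = 0.00293). The replication helicase subunit Mcm5 overlapped, with 122817, 104269 and 76369 against 88455, 86647 and 97761 (log2 difference 0.13, SE 0.53, adjusted p = 0.931). Among D cyclins and cell cycle brakes 6 of 25 were lower. Ccnd3, the D cyclin of lymphoid and red cell precursors, had 3528, 3439 and 3056 against 14186, 8847 and 9663 (3.2-fold, log2 difference -1.68, SE 0.24, adjusted p = 2.78e-04), and Btg1, an antiproliferative factor, 5684, 9529 and 8131 against 23847, 27333 and 25639 (3.36-fold, log2 difference -1.75, SE 0.20, adjusted p = 2.63e-05). Gas5, a host transcript of small nucleolar RNAs, was higher, at 18435, 20293 and 21089 against 6084, 6514 and 8889 (2.82-fold, adjusted p = 4.13e-04).

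Other regulatory groups had few called genes, to be read beside the 4.55% higher and 5.36% lower among all tested genes. Of 40 chromatin regulators 4 were higher and 0 lower, with 1 called when replicate 2 or 3 of the stem-enriched or replicate 1 or 2 of the cKit-negative samples was left out, 2 without cKit-negative replicate 3, and 7 without cKit-positive replicate 2. Dnmt3b, a de novo DNA methyltransferase, was the clearest, at 4642, 5628 and 5453 in stem-enriched cells and 782, 785 and 1182 in cKit-negative cells (5.81-fold, log2 difference 2.54, SE 0.29, adjusted p = 2.62e-05). Of 40 interferon response genes 5 were higher and 3 lower (10 higher without cKit-positive replicate 2). Differences above 0 numbered 30 of 40 for interferon genes and 24 of 40 for chromatin regulators. Samples lay wholly higher for 12 and 10 genes, respectively, and wholly lower for 5 and 3. Over all tested genes these shares were 19.6% and 13.3%. Within 1 gene family the membrane proteins Ifitm1 and Ifitm6 lay in opposite directions. Ifitm1 had 21906, 24042 and 15776 in stem-enriched cells and 5328, 5353 and 4816 in cKit-negative cells (3.93-fold higher, log2 difference 1.97, SE 0.26, adjusted p = 1.30e-04), and Ifitm6 had 681, 677 and 638 against 24073, 24837 and 9572 (26.9-fold lower, log2 difference -4.75, SE 0.38, adjusted p = 8.12e-07).

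Metabolic and signalling genes were mixed too. Of 29 glycolysis and hypoxia genes 3 were higher and 3 lower (5 and 6 higher without cKit-positive replicates 1 and 2). Pdk1, the kinase that holds pyruvate back from the mitochondrion, had 4416, 4178 and 4469 in stem-enriched cells and 2023, 1576 and 2085 in cKit-negative cells (2.32-fold, log2 difference 1.21, SE 0.22, adjusted p = 0.00222), and Egln3, an oxygen-sensing prolyl hydroxylase, 1855, 1947 and 1845 against 771, 529 and 920.3 (2.61-fold, log2 difference 1.38, SE 0.28, adjusted p = 0.00403). The glycolytic enzyme Pgk1 was not called (log2 difference 0.46, SE 0.35, adjusted p = 0.502). Of 43 genes of the TGF-beta, Notch and Wnt pathways 3 were higher and 3 lower, of 40 immediate early genes likewise 3 and 3, of 24 JAK, STAT and SOCS genes 0 and 2, of 14 Bcl2 family genes 0 and 2, and of 11 imprinted genes 1 and 0. These counts stand beside the 4.55% and 5.36% of all tested genes. Mcl1 and Bcl2, survival factors of stem cells and lymphocytes, were not called (log2 differences -0.02 and 0.14, adjusted p = 0.982 and 0.826).

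**Figure D4:**
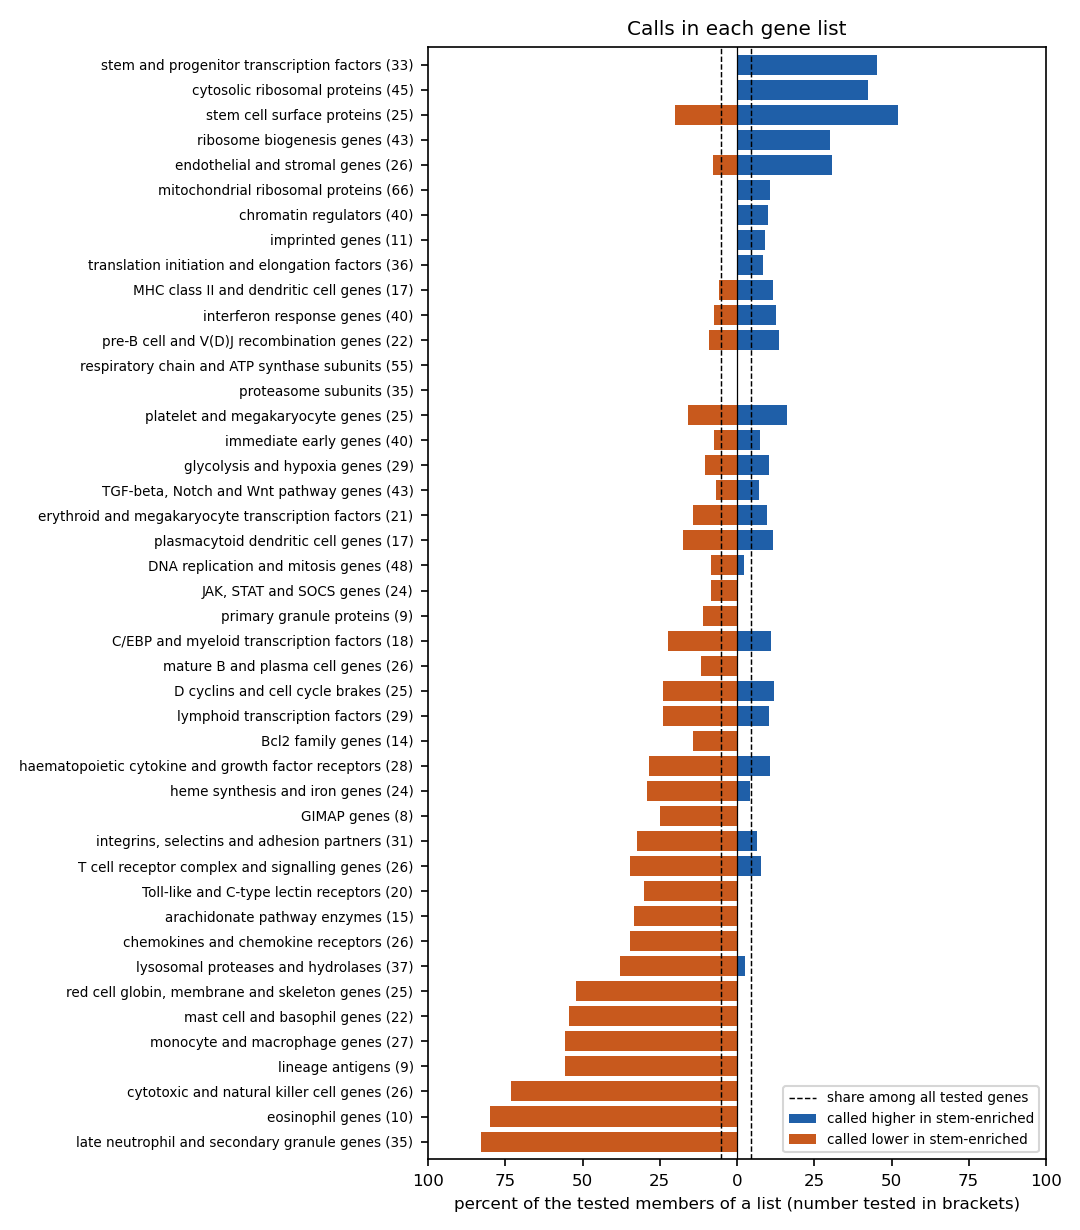
Percent of the tested members of each gene list that were called higher (blue, to the right) or lower (orange, to the left) in stem-enriched cells, with the number tested in brackets after the list's name. Dashed lines mark the shares among all tested genes, 4.55% higher and 5.36% lower. Late neutrophil, eosinophil and cytotoxic lists reach farthest to the left. Stem cell and cytosolic ribosomal protein lists reach farthest to the right, followed by the endothelial and stromal list and the ribosome biogenesis list.

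The levels of the same genes in other populations of the series show where the cKit-negative cells lie, as a description without a test. The mean log2 signal of Mcpt8 was 15.78 ± 0.11 for cKit-negative samples (SD, n = 3), 14.27 ± 0.14 in lineage-depleted marrow, 12.51 ± 0.14 in total marrow, 11.84 ± 0.50 in Sca-1-negative cells with cKit, and 10.97 ± 0.56 in the stem-enriched samples. The samples of cKit-negative cells, lineage-depleted marrow and total marrow did not overlap with each other, while the ranges of cKit-positive and stem-enriched cells did. Alox15 and Gzma were also highest in cKit-negative cells, with 14.49 ± 0.24 against 12.20 ± 0.34 in total marrow for Alox15 and 13.47 ± 0.80 against 10.35 ± 0.25 for Gzma. The neutrophil gene Ltf and the red cell gene Slc4a1 stood in the other order by their means. Among the 8 fixed neutrophil markers only Ngp had a lower mean in total marrow, at 17.09 ± 0.21 against 17.25 ± 0.21 in cKit-negative cells. Ltf reached 16.37 ± 0.06 in total marrow and 15.93 ± 0.63 among cKit-negative samples, where the ranges overlapped, and Slc4a1 reached 15.08 ± 0.18 and 13.99 ± 1.20, which overlapped too. Mecom lay at the floor in all 3 cKit-negative samples and at 12.55 ± 0.43 in stem-enriched cells, 10.57 ± 0.50 in lineage-depleted marrow, 8.94 ± 1.06 in cKit-positive cells and 8.79 ± 0.83 in total marrow. Dntt had 16.27 ± 0.29 in stem-enriched cells, and no other population's highest sample exceeded 13.68. Other rises were shared with cKit-positive cells, with overlapping ranges. Kit lay at 12.24 ± 0.09 in stem-enriched and 12.19 ± 0.13 in cKit-positive cells, Muc13 at 13.76 ± 0.26 and 13.26 ± 0.65, and Rpl10a at 16.25 ± 0.17 and 16.11 ± 0.16. Cd34, at 13.76 ± 0.42 and 12.66 ± 0.35, did not overlap between them.

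**Figure D5:**
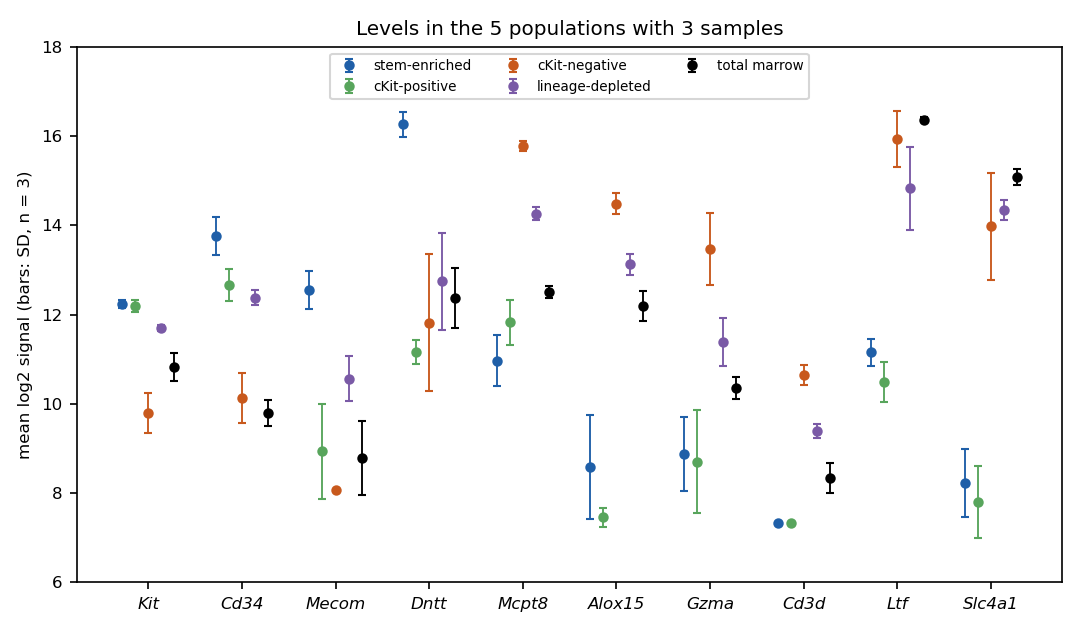
Mean log2 signal (vertical axis, bars show the SD of 3 samples) of 10 genes (horizontal axis) in the 5 populations with 3 samples each. Mcpt8, Alox15, Gzma and Cd3d are highest in cKit-negative cells, Ltf and Slc4a1 in total marrow, and Cd34, Mecom and Dntt in stem-enriched cells. A point with no bar has all 3 samples at the floor.

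Samples of a population were not equally far from the other population. Among the 614 genes called higher in stem-enriched cells, stem-enriched replicate 1 had the lowest of its population's signals for 50.5%, beside 34.5% over all tested genes, and cKit-negative replicate 3 had the highest for 59.9%, beside 38.0%. Among the 724 genes called lower, stem-enriched replicate 1 had the highest signal for 49.0%, beside 37.4%, and cKit-negative replicate 3 the lowest for 53.7%, beside 27.3%. For both sets of genes these samples thus lay nearest the other population most often. Primary granule genes were highest in stem-enriched replicate 1, and red cell genes were highest in cKit-negative replicate 1, as given above. Without stem-enriched replicate 1 the count of called probe sets was 1915, and without cKit-negative replicate 3 it was 2072.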

How the data were processed

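Expression was measured on Affymetrix chip types A and B. The authors deposited an intensity per probe set, linear MAS5 signals according to the submitters' processing notes (no version is given there). Every array had a 2% trimmed mean between 1499.72 and 1499.89, so no further scaling was done. Lot and day were read from other deposited text, the instrument records.

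From the signals, R 4.3.3 with limma 3.58.1 and Python 3.11.15 were used. Low signals were raised to the 25th percentile, 162.2 for type A and 267.3 for type B, before log2. Probe sets were tested if they exceeded the median (537 and 842) on at least 3 of 15 arrays. Each gene was read at its brightest tested probe set. The 15 samples of 5 populations shared the spread, with an intensity trend, and each chip type was fitted by itself. A fold against 3 samples at the floor is a lower bound. How many arrays there are limits the precision. The fit was tested on simulated data.

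Members and lists were chosen with earlier results of these data known. Named genes were the 15 largest rises and 15 largest falls without overlap, up to 8 members of each list by size and call, and sort markers. Other genes are said to be chosen after their values were seen. Same-numbered samples were checked for pairing. Other scalings, floors, filters, lots, covariates and left-out samples were tried.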

Additional observations from a re-analysis of the deposited data

How the results depend on the processing

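The count of called probe sets was 2425, with 1059 higher and 1366 lower, and genes numbered 1338. All tested ones among the 1338 kept their direction under the other settings of the fit except the one described last, and counts stayed within 1.5 times except as follows. Within the shared chip lot, with fewer chip type A arrays, 995 probe sets (371 higher, 624 lower) and 589 genes were called. The lot as a block, inside that limit, gave 2014 probe sets and 1132 genes. With the Gapdh ratio as covariate on 15 samples 3653 probe sets (1649 higher) and 2016 genes were called. There cKit-positive replicate 2, whose ratio lay far from all others, weighs heavily, and leaving it out with no covariate gave 4242 probe sets. The higher count therefore does not show that the differences are free of RNA quality. Leaving out 1 sample gave 1363 to 4242 probe sets, 547 to 2092 higher, 816 to 2150 lower and 808 to 2318 genes. A block for scan day could not be fitted. Same-numbered samples did not pair (correlations of their deviations 0.0136, 0.0732 and 0.0145), and with the replicate block 2367 probe sets and 1318 genes were called.

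An alternative chosen after seeing the data fitted the 6 samples alone with the Gapdh ratio as a covariate. It called 0 probe sets, higher or lower, and 0 genes (limma), while 2360 probe sets had an unadjusted p under 0.05, and it has fewer samples and degrees of freedom. In it 1249 of the 1338 genes kept their direction. Among the called genes named by the rule, log2 differences turned for Cd24a (0.12), Cpox (0.68), Ctse (0.21), Gbp3 (-0.33), Ldhb (-0.13), Mrps27 (-0.33), Mybbp1a (-0.12) and Slc2a3 (0.53). Named genes that were not called are left out of this list. Some of them changed sign over the settings tried, such as Mpo (lowest -2.27), Ctsg (lowest -3.30) and Car2 (highest 2.75). The mean over probe sets of Itgb2l was -1.29 (adjusted p = 0.0191), since its probe sets disagree. The part of RNA quality in the differences is not separated by these fits.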
